A study of Homo sapiens with 7 samples.

Results

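The genes described here are 9 human genes for inhibitory molecules that tumor cells carry or make: CD274 (PD-L1), PDCD1LG2 (PD-L2), CD276 (B7-H3), VTCN1 (B7-H4), CD200, CD47, LGALS9, NT5E (CD73) and IDO1. They were chosen by name, as the rows of the count table with one of these symbols, and make up 9 of the 57189 genes in it. The study measured poly(A) RNA of RH30 cells, an established rhabdomyosarcoma line labelled wild type, which by the methods carried GFP and luciferase reporters, after treatment with the Smac mimetic BV6 or without it. Smac mimetics bind inhibitor of apoptosis proteins and trigger the loss of cIAP1 and cIAP2. In the BV6 group (3 samples, replicates 2 to 4), cells received 5 µM BV6 for 24 h in their growth medium, and in the untreated group (4 samples, replicates 1 to 4) they did not. Replicates 2, 3 and 4 of both groups share a label in their sample titles and are called pairs here, while no BV6 sample shares the label of untreated replicate 1. The study calls its replicates biological, and how the cultures were kept apart is not given in the sources used here, so p-values measure the spread between these samples. Total counts per sample lay between 54070030 and 77220882. These totals exceed the read numbers that the methods state, so both mates of a read pair may have been counted, and then counts, floors and counting intervals rest on fewer independent fragments than they appear to. The highest total, in untreated replicate 1, also exceeds a doubling of the largest read number stated, and the reason was not tested.

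Tumor cells restrain immune attack through surface ligands and through enzymes that change their surroundings. PD-L1 and PD-L2 engage PD-1 on T cells, CD200 engages an inhibitory receptor on myeloid cells, and CD47 binds SIRPA on phagocytes as a signal not to engulf the cell. CD73 makes adenosine from AMP and IDO1 breaks down tryptophan, and both products dampen lymphocytes.

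Levels are given as CPM, counts scaled to a common library size with trimmed-mean factors. Fold changes and adjusted p-values come from the quasi-likelihood test of edgeR over all genes, with Benjamini-Hochberg adjustment, and a gene was called at an adjusted p below 0.05. Of the 9 genes, 8 passed the filter on low counts and IDO1 did not. CD200 was called, which makes 1 of 8, where 0.45% of the 23124 genes tested were called in either direction and 0.394% were called higher. It passed the filter through its BV6 counts alone, so nothing is read from that count. Across all 8 genes, 5 had a log2 fold change above 0 and 3 below 0, with a median of 0.15 beside -0.01 for all genes tested, and the median was 0.03 without untreated replicate 1 and BV6 replicate 3, libraries described with CD276. LGALS9 and NT5E had every BV6 sample above every untreated sample, as had 4.94% of the genes tested. CD200 had the same order, but it entered the test through its BV6 counts, so it is not set against that share. VTCN1 had every BV6 sample below, as had 3.89% of the genes tested. It reached the level of the filter in 4 untreated and 2 BV6 samples, and so entered through the untreated group. Nothing is read from its place beside that share. With a block for the replicate number, edgeR called 2 of the 8, CD200 and NT5E, where it called 0.943% of all genes. Untreated replicate 1 has no partner, so blocked fold changes rest on the pairs alone. The DESeq2 Wald test called 3, CD200, LGALS9 and NT5E, where it called 1.7%. CD200 is in both of these counts, so nothing is read from them either.

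**Figure D1:**
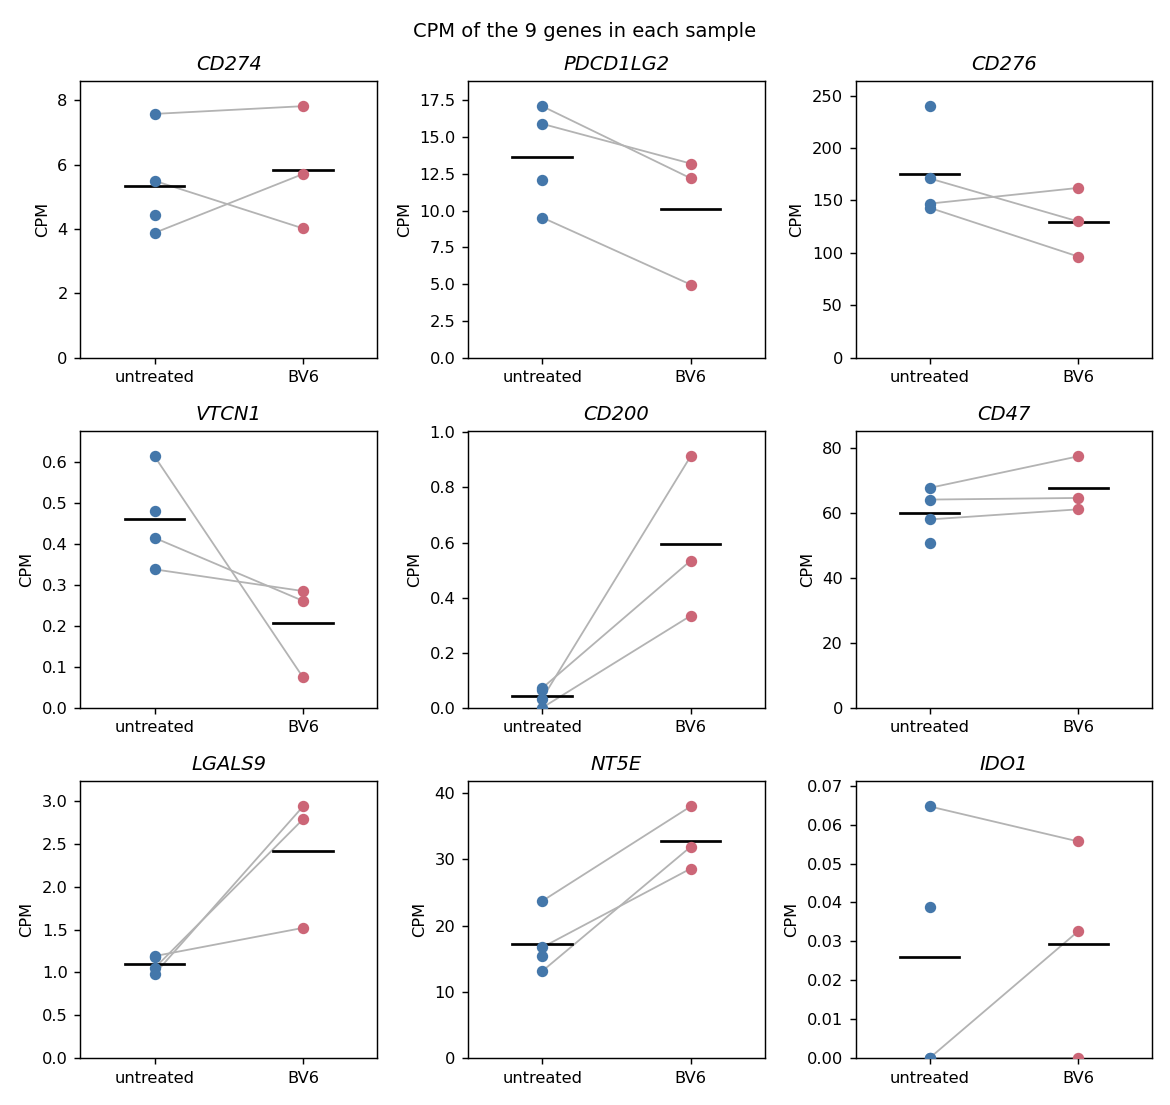
CPM of each gene in each sample (vertical axes in CPM from 0, untreated in blue, BV6 in red). Points are samples, black bars are group means and grey lines join pairs, and CD200, LGALS9 and NT5E have all 3 BV6 points above all 4 untreated points.

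Before treatment the genes covered a wide range. Per kb of annotated exons, CD276 had the highest untreated level at 32.0 ± 8.23 CPM per kb (SD, n = 4). It lay above 92.8% of those tested genes that were matched to the annotation of lengths. CD47 followed at 7.29 ± 0.903 CPM per kb, PDCD1LG2 at 5.62 ± 1.43 and NT5E at 3.80 ± 1.00. CD47 and PDCD1LG2 overlapped between samples, as did PDCD1LG2 and NT5E. CD274 stood lower, at 1.30 ± 0.398 CPM per kb, and its highest untreated sample (1.85) lay below the lowest of NT5E (2.90). LGALS9 at 0.193 ± 0.0182 and VTCN1 at 0.153 ± 0.0387 CPM per kb overlapped, and CD200 at 0.0142 ± 0.0110 and IDO1 at 0.00743 ± 0.00909 were close to 0 and overlapped too. Levels depend on the length used. Per kb of the longest transcript CD276 was at 53.2, LGALS9 at 0.365 and VTCN1 at 0.17 CPM per kb, and LGALS9 and VTCN1 then did not overlap.

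**Figure D2:**
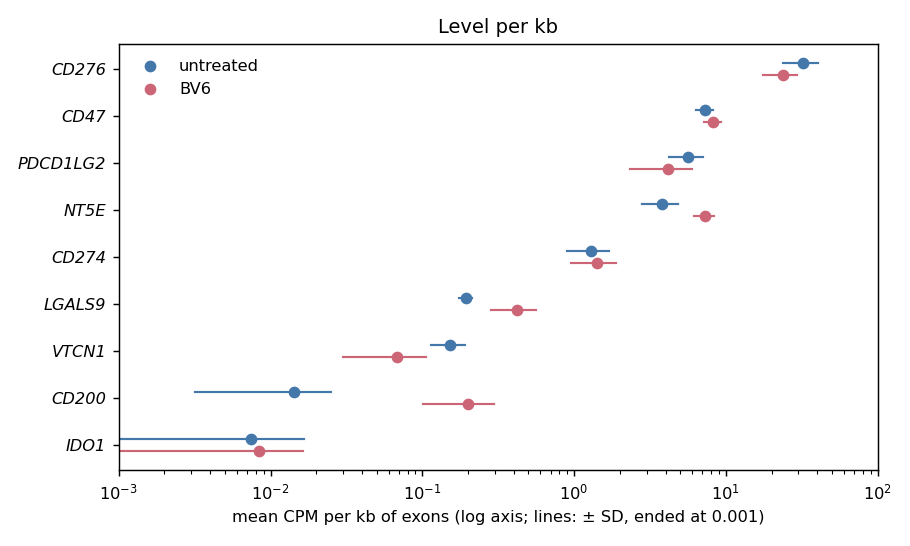
Mean CPM per kb of exons in untreated (blue, n = 4) and BV6 (red, n = 3) samples, on a log axis, with lines for the SD. CD276 is highest in both groups, and the CD200 mean moves from 0.0142 to 0.199.

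CD200, the ligand of an inhibitory receptor on myeloid cells, was nearly absent without BV6. The untreated libraries held 5, 4, 2 and 0 counts of CD200 (replicates 1 to 4), and the BV6 libraries 30, 56 and 18 (replicates 2 to 4). In CPM these were 0.0649, 0.0713, 0.0332 and 0 against 0.534, 0.913 and 0.334. All BV6 samples lay above all untreated samples, and 3 counts, taken as the floor, corresponded to between 0.0389 and 0.0557 CPM in these libraries, so 2 of the untreated samples lay under it. Because the gene entered the test through the group in which it was high, its adjusted p is given as a description. The log2 fold change was 3.74 ± 0.64 (SE; edgeR, Benjamini-Hochberg adjusted p = 0.0442), and with no filter on low counts it was 3.73 (edgeR, adjusted p = 0.00214). Summed over libraries, 11 untreated and 104 BV6 counts gave a ratio of 14.1 with an exact 95% interval of 7.56 to 29.1, which covers counting error only. With counts halved and rounded up, as if both mates had been counted, the ratio was 12.9 with an interval of 5.55 to 36.8. Within pairs the ratio was 7.50 (2.64 to 29.3) in pair 2 and 27.5 (7.27 to 233) in pair 3, and in pair 4 CD200 was at least 6.89-fold higher, against the floor of 3 counts in that library. The call was lost in all 7 fits that left out 1 sample, where edgeR gave adjusted p-values from 0.0712 to 0.162 and log2 fold changes from 3.29 to 4.06, and limma-voom gave an adjusted p of 0.0654. Exons of an annotated non-coding RNA on the same strand cover 11.9% of the CD200 exons, and reads of the 2 genes cannot be told apart there.

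NT5E, the surface enzyme that makes adenosine, was higher in every BV6 sample. Its CPM was 15.4, 23.7, 13.1 and 16.7 in untreated replicates 1 to 4 and 38.0, 31.9 and 28.6 in BV6 replicates 2 to 4. The groups did not overlap, and the highest untreated sample belonged to the pair with the highest BV6 sample. The ratio within pairs was 1.60, 2.43 and 1.71. NT5E had a log2 fold change of 0.93 ± 0.20 (SE), which did not pass in the unblocked edgeR fit (adjusted p = 0.122) and did pass once pairs were blocked (0.91, adjusted p = 0.0351). It also passed in edgeR without untreated replicate 2 (1.12, adjusted p = 0.0324), while the adjusted p reached 0.365 when another sample was left out.

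LGALS9, which encodes the lectin galectin-9, a ligand of TIM-3, showed 1.18, 0.980, 1.19 and 1.05 CPM in untreated replicates 1 to 4. In BV6 replicates 2 to 4 it showed 2.94, 1.52 and 2.79 CPM. The groups did not overlap, and BV6 replicate 3 stood nearer to the untreated samples than the other BV6 samples did. Its log2 fold change of 1.13 ± 0.26 (SE) did not pass in edgeR (adjusted p = 0.152), and without BV6 replicate 3 it was 1.38 (adjusted p = 0.0314). In the other 6 fits that left out 1 sample edgeR gave adjusted p-values from 0.269 to 0.428. Pairs gave ratios of 3.0, 1.27 and 2.65. The near-identical genes LGALS9B (0.330 CPM untreated, 0.293 CPM with BV6) and LGALS9C (0.487 and 0.457 CPM) can share reads with LGALS9, and exons of another protein-coding gene on the same strand cover 5.15% of the LGALS9 exons, so its counts are uncertain to that extent.

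CD274, the ligand PD-L1, did not pass the test. It had 4.43, 5.50, 3.88 and 7.58 CPM in untreated replicates 1 to 4 and 4.02, 5.71 and 7.82 CPM in BV6 replicates 2 to 4. The groups overlapped over nearly their whole range, and pair 2 was lower with BV6 (ratio 0.731) while pair 3 was higher (1.47) and pair 4 nearly equal (1.03). The log2 fold change was 0.13 with a 95% interval of -0.50 to 0.76 (edgeR, adjusted p = 0.925), and it was -0.13 without BV6 replicate 4. The gene starts at position 5450503 on chromosome 9 (plus strand, GRCh38). The stretch before it (GRCh38.p14, chr9:5450292-5450502, plus strand, from the RefSeq promoter table) is shown because 2 kinds of motif searched for lie in it, in capitals: 2 overlapping matches of the IRF element (2 runs of GAAA that lie 2 bases apart), on the opposite strand, and the STAT element TTCNNNGAA.
CD274: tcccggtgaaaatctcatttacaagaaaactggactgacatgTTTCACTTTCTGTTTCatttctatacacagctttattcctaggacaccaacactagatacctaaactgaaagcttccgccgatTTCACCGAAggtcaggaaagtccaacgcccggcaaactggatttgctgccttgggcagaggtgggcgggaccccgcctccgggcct
Promoter windows of 300 bases, from 250 before to 50 after the start, were found for 7 of the 9 genes. They use the start of the RefSeq promoter table, which for CD274 is not the GENCODE position given above. The IRF element occurred in those of CD274 and LGALS9, and in 3.57% of all 35114 windows. The STAT element occurred in that of CD274 and in 7.66% of all windows, and the kappa B decamer in that of CD276 and in 11.3%. Both strands were searched, and a match describes letters and not binding.

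PDCD1LG2, the ligand PD-L2, lies on the same chromosome as CD274 and did not pass the test either. Its CPM was 12.1, 9.53, 15.9 and 17.1 in untreated replicates 1 to 4 and 4.97, 13.2 and 12.2 in BV6 replicates 2 to 4. The groups overlapped, although each BV6 sample was below its untreated partner, with ratios of 0.521, 0.833 and 0.712. The log2 fold change was -0.43 ± 0.33 (SE; edgeR, adjusted p = 0.766), and it was -0.09 without BV6 replicate 2. JAK2 (log2 fold change 0.16) and PLGRKT (0.22), both near CD274, did not pass, with adjusted p-values from edgeR of 0.808 and 0.803. With 1 sample left out PLGRKT lay between 0.055 and 0.398. None of the 8 tested neighbours of the PD-L1 locus was called by edgeR.

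CD276, the B7 family member B7-H3, had 240, 171, 143 and 147 CPM in untreated replicates 1 to 4 and 130, 96.5 and 162 CPM in BV6 replicates 2 to 4. Untreated replicate 1 was the highest and BV6 replicate 3 the lowest, and the groups overlapped. The log2 fold change was -0.44 ± 0.22 (SE; edgeR, adjusted p = 0.638). These libraries also stood at opposite ends of the main axis of variation over all genes, which held 35.9% of the variance (scores of -48.6 and 68.3). The longest CD276 transcript had a GC content of 60%. Genes with a GC content of at least 60% had a median log2 deviation of 0.49 in untreated replicate 1 and -0.70 in BV6 replicate 3. The part of GC content in the CD276 values was not tested. The log2 fold change of CD276 was -0.25 without untreated replicate 1 and -0.26 without BV6 replicate 3 (edgeR, adjusted p = 0.999 each). Without both libraries, a setting chosen after seeing the data, it was -0.07 (edgeR, adjusted p = 1).

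VTCN1, the B7 family member B7-H4, was scarce: 0.480, 0.338, 0.415 and 0.614 CPM in untreated replicates 1 to 4 and 0.285, 0.261 and 0.0743 CPM in BV6 replicates 2 to 4. All BV6 samples lay below all untreated samples, and BV6 replicate 4 rested on 4 counts. The log2 fold change of -1.15 ± 0.45 (SE) did not pass in edgeR (adjusted p = 0.551), and it was -0.76 without BV6 replicate 4. CD47 had 50.6, 57.9, 67.6 and 64.0 CPM in untreated replicates 1 to 4 and 61.0, 77.3 and 64.5 CPM in BV6 replicates 2 to 4. The groups overlapped, the pair ratios were 1.05, 1.14 and 1.01, and the log2 fold change was 0.17 with a 95% interval of -0.13 to 0.47 (edgeR, adjusted p = 0.768). Without untreated replicate 1 and BV6 replicate 3 the CD47 value was -0.009. IDO1 had 3, 0, 0 and 4 counts in untreated replicates 1 to 4 and 0, 2 and 3 in BV6 replicates 2 to 4. A difference in IDO1 was not detectable at this depth, and the summed counts gave a ratio of 1.06 with an exact 95% interval of 0.266 to 3.90.

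**Figure D3:**
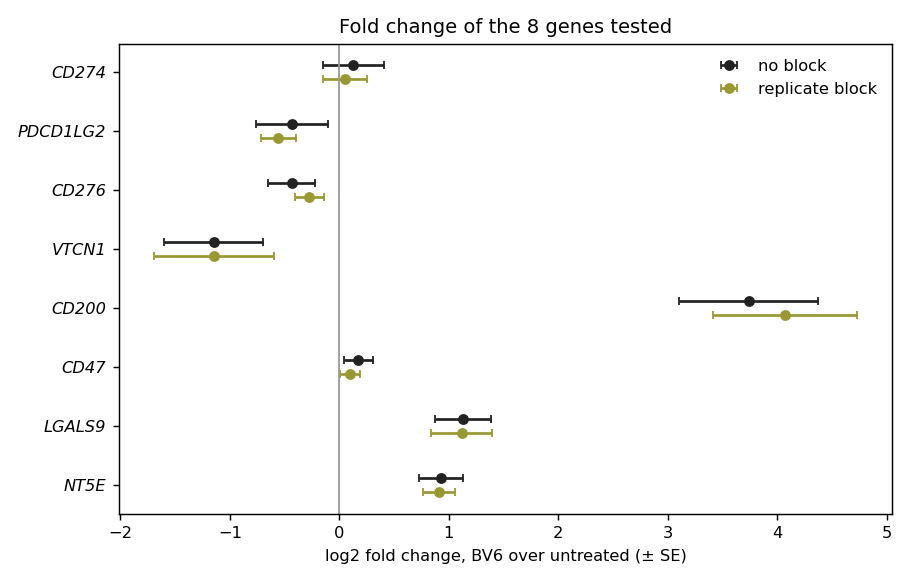
Log2 fold change of BV6 over untreated (horizontal axis, ± SE) for the 8 genes tested, from edgeR without (black) and with (olive) the replicate block. CD200 lies at 3.74 and 4.07, and the error bars of CD274 include 0 in both fits.

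Related genes were read from lists of the same pathways, of genes near CD274, and of NF-kB subunits and known BV6 responses. Over 163 listed genes, 131 were tested, and edgeR called 9 of them higher and 0 lower, where it called 0.394% of all genes higher. Of the 9 calls, 6 came from the list of NF-kB subunits and known BV6 responses. The median log2 fold change of the listed genes was 0.08. With the replicate block it called 12 higher and 1 lower, where it called 0.649% of all genes higher and 0.294% lower, and 9 of the 12 came from that same list. SIGLEC15, described below, is among the 9 and the 12 and entered the test through its BV6 counts. Nothing is therefore read from these counts beside those shares. Of the other B7 and butyrophilin genes, 11 of 17 were tested and none was called by edgeR, with 8 log2 fold changes above 0, 3 below and a median of 0.36. CD80, a costimulatory ligand near the floor (0.106 CPM untreated), had the largest value, 1.21 (edgeR, adjusted p = 0.714). BTN3A1, a presenter of phosphoantigens to gamma delta T cells, had a log2 fold change of 0.79 (edgeR, adjusted p = 0.268), and BTN2A2 one of 0.52 (adjusted p = 0.493). VSIR, the inhibitory molecule VISTA, had one of -0.64 (edgeR, adjusted p = 0.775), and between -1.62 and -0.22 with 1 sample left out. Of 16 tested genes for other inhibitory ligands, 1 was called higher: SIGLEC15, which encodes a sialic acid-binding inhibitor of T cells. Its CPM was 0.130, 0.321, 0.232 and 0.162 in untreated replicates 1 to 4 and 1.41, 0.766 and 1.65 in BV6 replicates 2 to 4, without overlap. SIGLEC15 reached the level of the filter, 0.168 CPM, in 2 untreated and 3 BV6 samples, and so entered the test through the BV6 group. Its adjusted p is given as a description, and nothing is read from the count of 1 of 16. The fold was 6.07, with an SE of 0.39 on the log2 scale (edgeR, adjusted p = 0.0249), and the call was kept in 2 of 7 fits that left out 1 sample. PVR, the ligand of TIGIT, had 47.8 to 54.7 CPM untreated and 32.9 to 36.2 CPM with BV6. Those groups did not overlap, and its log2 fold change of -0.59 passed in edgeR with the replicate block (adjusted p = 0.0372) and not without (0.0538). HLA-E, the ligand of NKG2A, had 45.3 to 54.2 CPM untreated and 57.1 to 84.1 CPM with BV6 (log2 fold change 0.54, edgeR adjusted p = 0.216).

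Of 15 tested genes for phagocytosis signals, edgeR called none, and their median log2 fold change was -0.15. B2M, the class I light chain read by an inhibitory receptor of macrophages, had 418 to 566 CPM untreated and 642 to 855 CPM with BV6. These groups did not overlap, and its log2 fold change of 0.58 did not pass (edgeR, adjusted p = 0.162). CALR, a signal for uptake when it is at the cell surface, had a log2 fold change of -0.19 (edgeR, adjusted p = 0.766). With 1 sample left out CALR lay between -0.40 and -0.08. In the adenosine pathway edgeR called none of 11 tested genes, with a median of -0.17, and ENTPD2, which hydrolyses ATP, had a log2 fold change of -1.21 (adjusted p = 0.155). Its samples did not overlap, at 1.60 to 3.09 CPM untreated and 0.848 to 1.30 CPM with BV6.

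In the tryptophan and kynurenine pathway edgeR called 1 of 17 tested genes higher, beside 0.394% of all genes. That gene was WARS, the tryptophanyl-tRNA synthetase. WARS had 101, 114, 99.3 and 114 CPM in untreated replicates 1 to 4 and 236, 194 and 167 CPM in BV6 replicates 2 to 4. The groups did not overlap, and it was 0.89 ± 0.13 (SE) higher on the log2 scale (edgeR, adjusted p = 0.0220), a call kept in 3 of 7 fits that left out 1 sample. KMO and AADAT, enzymes that act further along the kynurenine route, had log2 fold changes of 0.44 each (edgeR, adjusted p = 0.736 and 0.619). With 1 sample left out KMO lay between 0.24 and 0.69 and AADAT between 0.34 and 0.61. Of 24 tested regulators of PD-L1, edgeR called none, with a median of -0.01. CDK4 was the most abundant by CPM (4769 untreated, 4819 with BV6), and YAP1 had a log2 fold change of 0.44 (edgeR, adjusted p = 0.156) and HIP1R one of -0.44 (adjusted p = 0.702), which lay between -0.72 and -0.16 with 1 sample left out.

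On the route from interferon gamma to IRF1, edgeR called 1 of 17 tested genes higher, beside 0.394% of all genes. The median log2 fold change of the 17 was 0.19. IRF1, a transcription factor of interferon responses, had 17.6, 22.0, 14.9 and 15.5 CPM in untreated replicates 1 to 4 and 46.1, 34.2 and 30.2 CPM in BV6 replicates 2 to 4. The groups did not overlap, and IRF1 was 1.07 ± 0.19 (SE) higher on the log2 scale (edgeR, adjusted p = 0.0478), a call kept in 1 of 7 fits that left out 1 sample. IRF2 had a log2 fold change of 0.88 and did not pass (edgeR, adjusted p = 0.0722). For scale, edgeR called 6 of 12 genes for NF-kB subunits and known BV6 responses higher, beside 0.394% of all genes, with a median of 0.88. That list was picked for its response to BV6, so its direction is no independent evidence. BIRC3, which encodes cIAP2, had 1.26 to 4.74 CPM untreated and 52.3 to 102 CPM with BV6, and its log2 fold change was 4.86 (edgeR, adjusted p = 0.00341). NFKBIA (2.17, edgeR adjusted p = 0.0116) and NFKB2 (1.67, adjusted p = 0.0110) were also called.

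**Figure D4:**
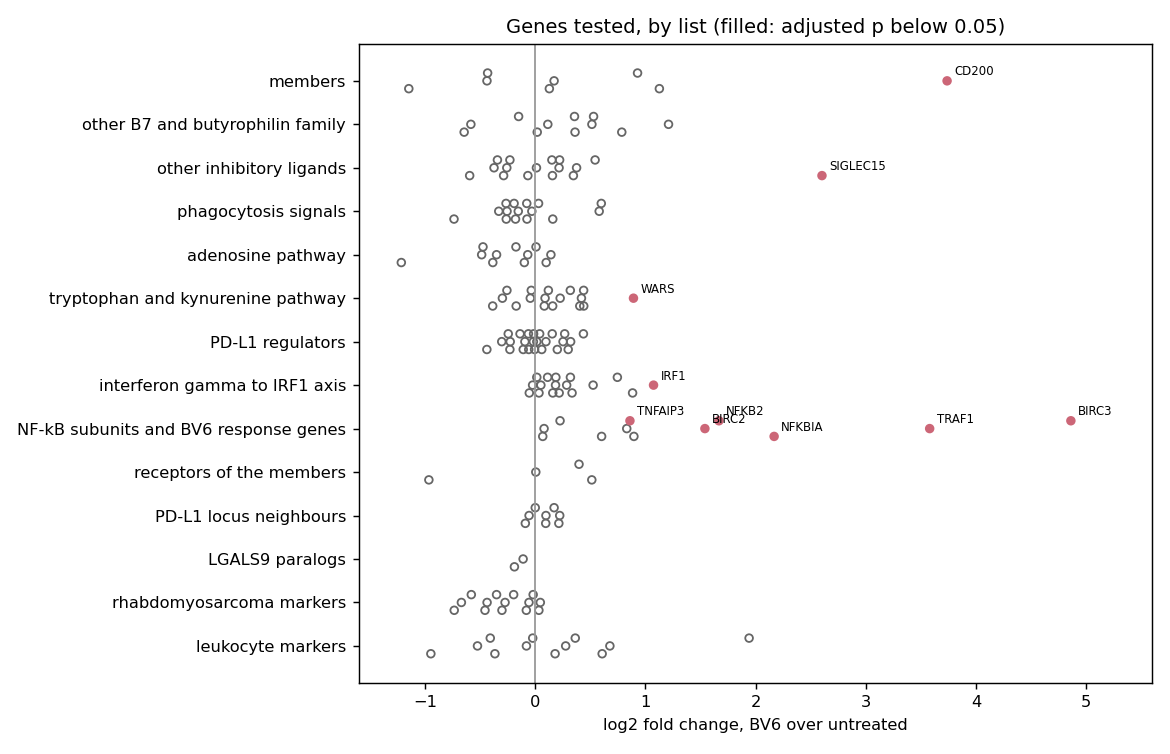
Log2 fold change of BV6 over untreated (horizontal axis) for each gene tested, in rows by list. Filled red points are genes called by edgeR at an adjusted p below 0.05, among them CD200 at 3.74 and BIRC3 at 4.86.

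Of 9 genes listed as receptors for these and related ligands, 4 were tested and edgeR called none. SIRPA, the receptor of CD47 and listed with the phagocytosis signals, had 78.8 CPM untreated and 62.7 CPM with BV6. Within the receptor list HAVCR2 (TIM-3) had the highest mean CPM, 10.7 untreated and 14.1 with BV6. Markers of rhabdomyosarcoma were present: the muscle regulator MYOD1 had 344 CPM untreated and 251 CPM with BV6, and DES, the muscle intermediate filament, 768 and 568 CPM. Of 14 tested markers edgeR called none, their median log2 fold change was -0.29, and 12 had a value below 0. Several were highest in untreated replicate 1 and lowest in BV6 replicate 3, such as MYOD1 (474 and 157 CPM), FGFR4 (933 and 211 CPM) and CDH15 (315 and 68.1 CPM). Genes with a GC content of at least 60% had a median log2 deviation of 0.49 in the former library and -0.70 in the latter, and the part of GC content in the markers' shift was not tested. Without both libraries the median of the markers was -0.13 and 11 had a value below 0. With the replicate block edgeR called CHRND lower (log2 fold change -0.64, adjusted p = 0.0368), where it called 0.294% of all genes lower. In bulk samples, fewer cells of a type and less RNA per cell cannot be told apart. The 22 leukocyte markers summed to between 24.7 and 33.9 CPM untreated and between 24.0 and 41.4 CPM with BV6. CSF1R was the most abundant of them (12.7 CPM untreated, 14.4 CPM with BV6), followed by NKG7 (9.79 and 6.82 CPM). CD68 had 2.07 to 4.22 CPM untreated and 4.33 to 5.27 CPM with BV6, without overlap (log2 fold change 0.68, edgeR adjusted p = 0.459). The pan-leukocyte marker PTPRC was low (0.378 CPM untreated, 0.466 CPM with BV6) but reached the level of the filter in every sample. The T cell marker CD3D (0.0425 and 0.00594 CPM) was near 0. CD3E, another T cell marker, was low but above CD3D (0.205 CPM untreated, 0.102 CPM with BV6). It was tested and did not pass (log2 fold change -0.95, edgeR adjusted p = 0.744). edgeR called none of 12 tested leukocyte markers. With the replicate block it called ITGAX higher (log2 fold change 2.0, adjusted p = 0.0180), where it called 0.649% of all genes higher.

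Genes with the most similar pattern were sought by Pearson correlation of log2 CPM over the 7 samples, among 17059 genes with a mean of at least 1 CPM. The points share libraries, so r is a description. CD47 was most like JAK2 (r = 0.997), TMEM182 (0.993) and SLC35A5 (0.989). The genes most like NT5E included ETS1 (0.985) and ANXA2P2 (0.983). PDCD1LG2 was most like BDNF (0.997), PPIC (0.995) and REXO5 (0.992). CD276 was most like PPP1R26 (0.994), PPDPF (0.991) and NOTCH1 (0.990), and 194 genes had an r above 0.95 with it. LGALS9 was most like TMEM200B (0.978), AC026310.2 (0.969) and TGIF2 (0.964). Among the members compared, CD274 had the weakest matches, TMEM81 (0.954), MIATNB (0.943) and SPIRE1 (0.942). CD200, VTCN1 and IDO1 had means under 1 CPM and were not compared.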

How the data were processed

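The authors prepared stranded poly(A) libraries, mapped paired-end reads to GRCh38 with STAR 2.6.1d and deposited raw counts per gene from a union of each gene's isoforms. The counting program and the handling of mates are not given in the sources used here. All 7 samples entered. In R 4.3.3, edgeR 4.0.16 (quasi-likelihood test, TMM factors, filterByExpr at 10 counts, Benjamini-Hochberg) compared BV6 with untreated without a block. Of the 57189 genes, 23124 were tested. The fits were also run on simulated data, for which no result is given here. Alternatives were DESeq2 1.42.0 (Wald test), limma-voom 3.58.1, RLE factors, other filters, the replicate block, halved counts and leaving out each sample. The pairing comes from a label shared in sample titles. Deviations from group means correlated at 0.462, 0.438 and 0.0847 in pairs 2, 3 and 4, so pair 4 gives little sign of pairing in the data. The mean for other combinations was -0.11. Centring on group means largely fixes that value once the pairs are known, so it is no independent baseline. Lengths came from GENCODE 44, a later annotation than the authors used, and 19990 genes were not matched to it. Log2 CPM used a prior count of 2. Named were all 9 genes and, per list, genes drawn from those called, the 3 with the highest mean CPM and the 3 with the largest change, JAK2, PLGRKT, the 3 genes most like each, and BIRC3, NFKBIA, NFKB2 and IRF1. MYOD1, PTPRC and CD3D, as defining markers, and SIRPA were named after their values were seen. Some genes that this rule takes are not reported here. Members and lists were chosen with earlier results of these data known.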

Additional observations from a re-analysis of the deposited data

Results flagged for a closer look

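In 5 of 95 named genes the untreated group had 1 sample far from the other 3 in CPM, by a gap that took up most of the group's range, and chance alone gives this in about 1 in 20 groups. ACTC1 had 1360 CPM in untreated replicate 4 and 804 to 851 in the others (gap over range 0.915). FGFR4 had 933 CPM in untreated replicate 1 and 526 to 578 in the others (0.872). UHRF2 had 27.6 CPM in untreated replicate 3 and 23.5 to 24.0 in the others (0.896), STAT3 had 232 CPM in untreated replicate 2 and 262 to 268 in the others (0.851), and BTN2A1 had 24.3 CPM in untreated replicate 3 and 26.3 to 26.7 in the others (0.838). None of the 9 checkpoint and don't-eat-me genes was among them.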

How the results depend on the processing

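Over all genes edgeR called 104, against 408 with the DESeq2 Wald test, 242 with no filter on low counts, 218 with the replicate block and 38 to 89 when 1 sample was left out. Of the members, 1 was called, against 3 with DESeq2, 2 with no filter, 2 with the replicate block, 0 with limma-voom, 0 with halved counts, 0 with at least 10 counts in every sample, and 0 to 1 when 1 sample was left out. CD200 was removed by the filter in the fits with halved counts and with 10 counts in every sample, which gave it no value. The 9 calls among listed genes became 2 to 8 when 1 sample was left out. CD200 missed the threshold with limma-voom (3.92, adjusted p = 0.0654) and without any 1 sample (3.29 to 4.06). NT5E passed with DESeq2 (0.91, adjusted p = 0.00534), no filter (0.92, 0.0154) and the replicate block (0.91, 0.0351), and ranged from 0.82 to 1.12 when 1 sample was left out. LGALS9 passed with DESeq2 (1.11, adjusted p = 0.00982) and ranged from 0.97 to 1.38. CD274 changed sign without BV6 replicate 4 (-0.13) and ranged from -0.13 to 0.35. The replicate block changed no other member's call. Chosen after seeing the data, leaving out untreated replicate 1 and BV6 replicate 3 together gave 27 genes, 0 members and 3 listed genes called, CD200 at 3.60 (adjusted p = 0.27) and CD47 at -0.009. Fits with a GC content correction, also chosen after seeing the data, are void as a check, since GC content was known for 77.6% of the genes tested and 80% was the minimum. They gave 200 genes, 2 members and 14 listed genes called (LGALS9 at 1.17 on the log2 scale, adjusted p = 0.0474), and with the replicate block 1092, 4 and 33 (LGALS9 1.14, NT5E 0.88, PDCD1LG2 -0.58, with adjusted p-values of 0.0297, 0.00215 and 0.0325). Per kb of the longest transcript, untreated levels were 53.2 for CD276, 8.83 for CD47 and 0.365 for LGALS9, and the order of the 9 genes was the same. By Spearman's rho, 0 of the 3 genes most like CD274 stayed among the top 3, 1 for LGALS9, 1 for NT5E, and 2 each for PDCD1LG2, CD276 and CD47. Where calls changed, the cause was not tested. Depth limits CD200, VTCN1 and IDO1, with counts of 56 or fewer per library.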
